A study of Mus musculus with 40 samples.

Results

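Castrated male mice that carried a dihydrotestosterone (DHT) pellet were compared with castrated males that carried a placebo pellet, liver against liver. The members are the 10 livers labelled castrated with DHT (animals 59 to 63) or castrated with placebo (animals 24 to 28), of 40 livers in all. All animals were C57BL/6J mice on chow with 4% fat, killed at 14 weeks of age after a fast of 12 h. Castrated males had lost their testes at 8 weeks and received a pellet at 12 weeks, which held 5 mg DHT, 0.5 mg estradiol or placebo. The DHT pellet was made to release over 21 days and, per the labels, gives 1 to 2 ng/ml in plasma, and the estradiol pellet gives 300 pg/ml. The other groups used are intact males, intact females, castrated males with estradiol, and ovariectomized females with placebo, estradiol or DHT, treated at the same ages, with 5 animals in each group. The labels do not say whether the intact mice carried a pellet, and the pellet acted on the whole animal, so a change in liver need not arise in liver cells. Each array set the RNA of 1 liver (Cy5) against a common liver pool (Cy3), and a value is the log2 ratio to that pool; a difference of 1 is 2-fold.

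DHT is the most potent natural androgen and, unlike testosterone, is not converted to estrogen. In liver, androgens act on hepatocytes directly and through the pituitary, whose growth hormone is released in pulses in male rodents and more evenly in females. That pattern is read by growth hormone receptor, Jak2 and Stat5b, and sets the sex difference of many cytochromes P450, sulfotransferases, transporters and steroid dehydrogenases. Castration removes the testicular androgen, and the comparison asks which liver RNAs an androgen that cannot become estrogen moves in its absence.

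Of 23574 probes, 819 (3.47%) differed between DHT and placebo at a limma adjusted p under 0.05 (Benjamini-Hochberg over all probes), 450 higher and 369 lower under DHT. Of these, 223 differed by at least 1.5-fold and 91 by at least 2-fold. Taking 1 probe for each of 10842 named genes, 425 (3.92%) passed, of which 231 genes (2.13%) rose and 194 (1.79%) fell. The 5 values of each group did not overlap for 227 of the genes that passed, 2.09% of all genes. The count depended on single animals: it was 335 without animal 62, 338 without 59, 425 without 27, 491 without 24 and 500 without 60, and 1115 without 61. The arrays of animals 26 and 60 had wider interquartile ranges (0.33 and 0.29) than the other 8, which lay between 0.17 and 0.22, and 432 probes passed without both. In whole liver, fewer cells of a type and less RNA per cell cannot be told apart. Ratios to a liver pool give no absolute level, so the tissue was not checked by marker level.

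The largest rise was that of Hsd3b5, a 3-ketosteroid reductase of the male mouse liver that inactivates DHT. Its log2 ratio to the pool was -4.10, -3.84, -4.06, -3.88 and -4.32 in the placebo animals 24 to 28. Under DHT it was 2.41, 1.29, -3.19, 1.98 and 1.2 in animals 59 to 63, so 4 animals lay in or near the range of the intact males (1.34 to 2.26) and animal 61 lay just above placebo. The difference of means was 4.78 ± 0.73 (SE), 27.4-fold (limma adjusted p = 0.000231). That SE pools the spread within all 8 groups of the fit. For Hsd3b5 the DHT group varied far more than the placebo group (SD 2.25 against 0.192). A second probe with the same gene name hardly varied over the 40 arrays and differed by 0.0205 (adjusted p = 0.963). Its neighbour on chromosome 3, Hsd3b2, rose by 1.51 ± 0.24 (adjusted p = 0.000329), from between -1.22 and -0.41 to between 0.85 and 1.12 in 4 animals and -0.32 in animal 61. The other measured 3β-hydroxysteroid dehydrogenases of the cluster did not pass, with differences of -0.033 for Hsd3b1 and -0.010 for Hsd3b6.

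Serpina4-ps1, annotated as a pseudogene of the serpin protease inhibitors, had the next largest rise. Placebo animals read -3.21, -3.13, -3.37, -3.19 and -3.67, and DHT animals 59 to 63 read 1.91, 0.96, -2.39, 1.87 and -1.5. The difference was 3.48 ± 0.69 (SE; adjusted p = 0.00245), and animals 61 and 63 lay nearer to placebo than to the other 3. Egfr, the epidermal growth factor receptor, rose by 2.00 ± 0.29 (4.01-fold, adjusted p = 0.000163). Its ratios were -1.34, -1.56, -1.67, -1.38 and -1.82 under placebo and 0.84, 0.53, -0.69, 0.90 and 0.65 under DHT. All 5 DHT animals were above all placebo animals, as the choice of these genes among those without overlap required. Animal 61 was the lowest of them, and the intact males lay between 0.49 and 1.2.

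**Figure D1:**
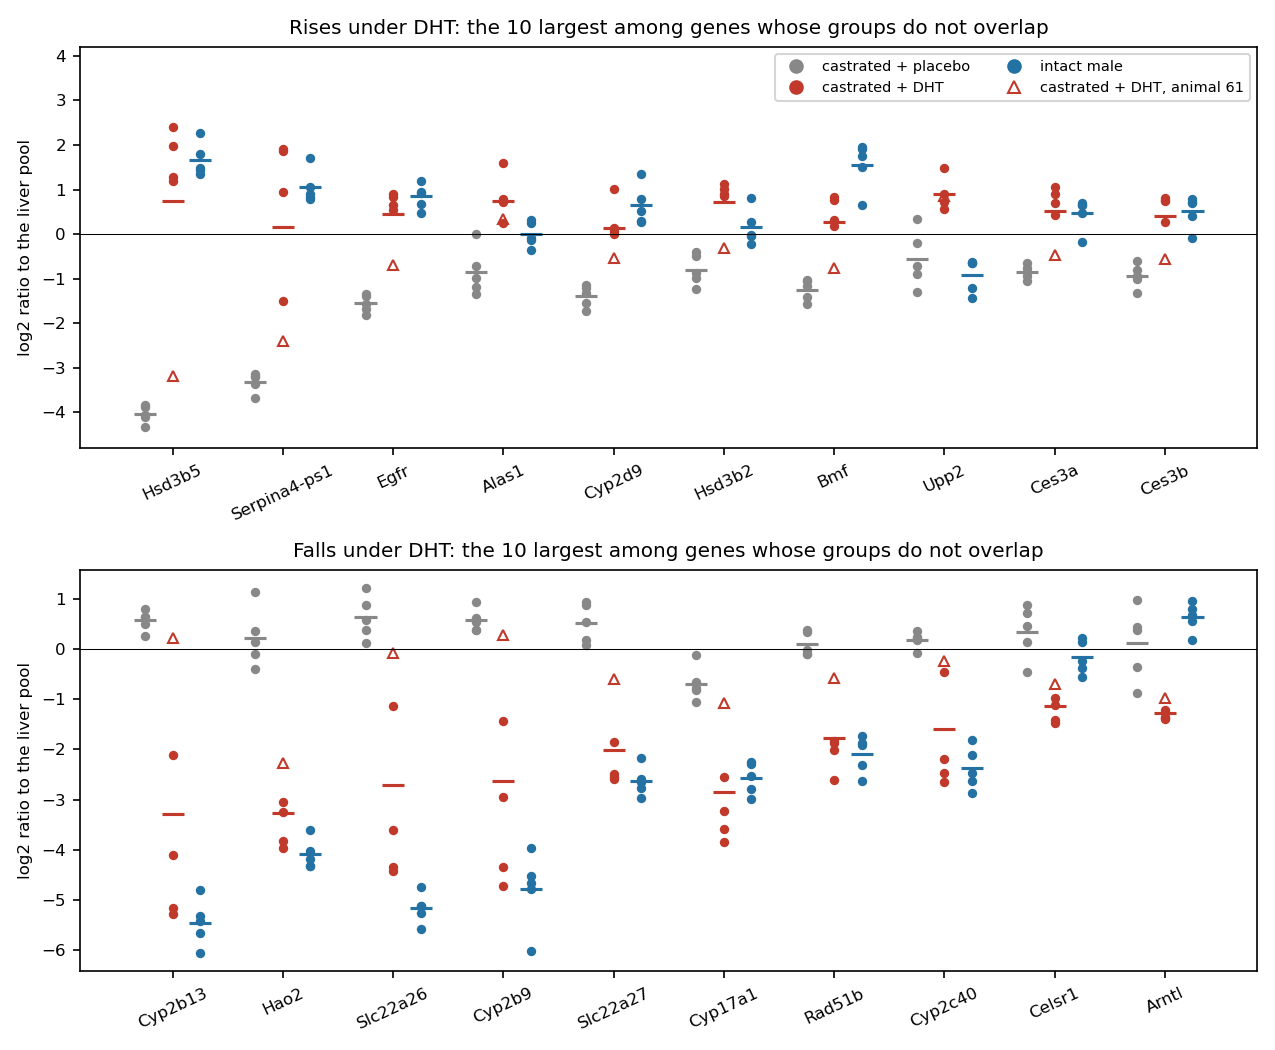
Log2 ratio to the liver pool (vertical axis) in each of the 5 animals with placebo (grey), 5 with DHT (red, animal 61 as an open triangle) and 5 intact males (blue), for the 10 largest rises and the 10 largest falls among genes whose groups do not overlap; bars are group means. Hsd3b5 lay at -3.19 in animal 61 and between 1.2 and 2.41 in the other DHT animals, and Cyp2b13 at 0.23 against -5.28 to -2.10.

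The other large rises were enzymes, transporters and regulators. Cyp2d9, a steroid hydroxylase of the male liver, rose by 1.52 ± 0.42 (adjusted p = 0.0358) and its neighbour on chromosome 15, Cyp2d10, by 0.99 ± 0.19 (adjusted p = 0.00172); the call of Cyp2d9 was lost without any one of animals 24, 25, 27, 28, 59, 60 and 62. Alas1, the first enzyme of heme synthesis, rose by 1.58 ± 0.25 (adjusted p = 0.000329), with placebo animals from -1.34 to -0.00381 and DHT animals from 0.25 to 1.59. The adjacent carboxylesterase genes Ces3a and Ces3b rose by 1.36 and 1.35. Slco1a1, an uptake transporter for bile acids and organic anions, rose by 1.16 ± 0.27 (adjusted p = 0.0107). Bmf, a member of the Bcl2 family that promotes cell death, rose by 1.51 ± 0.25 and Selenbp2, a selenium binding protein, by 1.11 ± 0.19. Upp2, a uridine phosphorylase, rose by 1.46 ± 0.30 (adjusted p = 0.00336), with DHT animals from 0.56 to 1.49 and placebo animals from -1.30 to 0.34; a second Upp2 probe differed by -0.063 (adjusted p = 0.92). Fbf1 (1.10), Serpina3f (1.10), Ngef (1.06), Hes6 (1.01), Spsb1 (0.95), Cplx3 (0.90) and the thymidine kinase gene Tk1 (0.86) complete the 20 largest rises without overlap. Cplx3 lost its call without animal 62.

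The largest fall was that of Cyp2b13, a cytochrome P450 of the female mouse liver. Placebo animals 24 to 28 read 0.65, 0.65, 0.81, 0.26 and 0.51. DHT animals 59 to 63 read -5.28, -4.10, 0.23, -5.17 and -2.10, so 4 animals were far below placebo and animal 61 was just below its lowest value. The difference was -3.86 ± 0.72 (SE; a 14.5-fold fall, adjusted p = 0.00128). Here too the SE pools all 8 groups, while the SD was 2.34 under DHT and 0.205 under placebo. Cyp2b9, its neighbour on chromosome 7, fell by 3.20 on the log2 scale (SE 0.61, adjusted p = 0.00162), with DHT animals at -4.72, -2.94, 0.29, -4.34 and -1.43 and placebo animals between 0.38 and 0.95. Further probes of both genes differed less, by -0.68 for Cyp2b13 (adjusted p = 0.0179) and -0.28 for Cyp2b9 (adjusted p = 0.00639).

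The promoters of the 2 Cyp2b genes are shown because the genes fell together and are near-copies. In the RefSeq table of GRCm38.p6, the 250 bases before each start were identical at 248 of 250 positions (99.2%). The substitutions from Cyp2b13 to Cyp2b9 were C48T and T104C, counted from 1 at the 5′ end, and capitals mark those bases. The windows are chr7:26061245-26061494 (plus strand) for Cyp2b13 and chr7:26173159-26173408 (plus strand) for Cyp2b9. Whether the probes separate the RNAs of genes this alike was not tested.
Cyp2b13: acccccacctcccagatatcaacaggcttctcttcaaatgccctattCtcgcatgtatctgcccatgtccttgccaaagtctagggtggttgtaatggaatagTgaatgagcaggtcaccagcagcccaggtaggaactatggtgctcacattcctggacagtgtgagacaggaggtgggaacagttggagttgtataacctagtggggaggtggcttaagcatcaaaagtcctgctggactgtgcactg
Cyp2b9: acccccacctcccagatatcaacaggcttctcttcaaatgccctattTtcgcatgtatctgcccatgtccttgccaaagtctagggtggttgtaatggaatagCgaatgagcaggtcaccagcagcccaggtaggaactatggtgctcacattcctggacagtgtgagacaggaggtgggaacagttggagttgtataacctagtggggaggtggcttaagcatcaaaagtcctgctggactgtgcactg

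Slc22a26 and Slc22a27 are adjacent genes on chromosome 19 for organic anion transporters, and both fell. Slc22a26 read 0.59, 0.13, 0.39, 1.22 and 0.89 under placebo and -4.43, -3.60, -0.0795, -4.35 and -1.13 under DHT, a difference of -3.36 ± 0.56 (SE; 10.3-fold, adjusted p = 0.000454). Slc22a27 fell by 2.55 on the log2 scale (SE 0.37, adjusted p = 0.000163), from between 0.0929 and 0.95 to -2.48, -2.59, -0.59, -2.54 and -1.85. In both genes animal 61 lay highest of the DHT animals, and below every placebo animal, as the choice of genes without overlap required. Unlike the Cyp2b pair, their promoters differ: aligned over 250 bases they were identical at 147 (58.8%). The windows are chr19:7802668-7802917 for Slc22a26 and chr19:7966028-7966277 for Slc22a27, both on the minus strand. Capitals mark motif matches on either strand: TTCAGGGAA of the STAT5 type (TTCNNNGAA) 141 bases before the start of Slc22a26 and ATCAAT, the reverse complement of the HNF6-type ATTGAT, 58 bases before it. Slc22a27 held neither motif in its window.
Slc22a26: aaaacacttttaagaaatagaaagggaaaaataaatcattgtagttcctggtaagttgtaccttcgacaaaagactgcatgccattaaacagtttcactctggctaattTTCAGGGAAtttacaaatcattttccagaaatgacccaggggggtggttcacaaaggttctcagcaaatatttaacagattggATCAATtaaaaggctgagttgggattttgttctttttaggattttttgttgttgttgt
Slc22a27: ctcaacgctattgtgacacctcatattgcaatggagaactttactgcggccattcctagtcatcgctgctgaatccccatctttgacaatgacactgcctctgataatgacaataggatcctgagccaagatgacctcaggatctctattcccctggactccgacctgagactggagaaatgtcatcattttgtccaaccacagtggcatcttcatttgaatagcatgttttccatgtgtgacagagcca

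Promoters of 35 of the 40 genes with the largest changes were in the table. TTCNNNGAA occurred in 3 of 18 that rose (16.7%: Alas1, Fbf1 and Serpina3f) and 1 of 17 that fell (5.88%: Slc22a26), against 7.18% of 27025 promoters. ATTGAT occurred in 0 of 18 and 1 of 17, against 6.97%. Both were searched on both strands, and a match or its absence describes only these letters in these windows.

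Hao2, a peroxisomal oxidase of 2-hydroxy acids, is separated from Hsd3b5 on chromosome 3 by 4 protein-coding genes, all of the Hsd3b family, and moved the other way. It read -0.40, 0.36, -0.0928, 0.14 and 1.15 under placebo and -3.83, -3.25, -2.27, -3.96 and -3.05 under DHT. All DHT animals were far below all placebo animals, where the choice of genes required only that the groups not overlap. Hao2 fell by 3.5 on the log2 scale (SE 0.61, adjusted p = 0.000662). Cyp17a1, the 17α-hydroxylase of steroid synthesis, fell by 2.17 (SE 0.44, adjusted p = 0.00343), with -3.58, -3.22, -1.07, -3.85 and -2.55 under DHT and -1.06 to -0.12 under placebo. Rad51b, a DNA recombination gene, fell by 1.89 and Cyp2c40, a P450 that oxidises arachidonic acid, by 1.79. Further Cyp2c40 probes differed by -0.98, -1.04 and 0.14, and Cyp2c40 cannot be told apart here from close Cyp2c copies.

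Further falls without overlap were those of Celsr1, a cadherin of cell polarity (-1.49), the clock gene Arntl (-1.38), the mitochondrial protease subunit Clpx (-1.32), Insig2, which holds back sterol regulatory proteins (-1.31), Pcp4l1 (-1.23), the tubulin Tubb2a (-1.19) and the defensin Defb1 (-1.18). Crip2 (-0.96), Serpina7, the thyroxine-binding globulin (-0.95), the ubiquitin ligase Trim2 (-0.93), the membrane metalloprotease Mmp14 (-0.82) and the carboxylesterase Ces1c (-0.77) complete the 20. Crip2 had a second probe at 0.050 (adjusted p = 0.959), while the second Clpx probe fell by 1.21 and those of Tubb2a by 0.83 and 0.57. Of the 40 genes, 35 passed with each animal left out in turn; the exceptions were Cyp2d9, Cplx3, Pcp4l1, Serpina7 and Ces1c. In a fit to the 10 arrays alone, Serpina4-ps1, Cyp2b13, Cyp2b9, Slc22a26, Cyp2c40, Cplx3, Serpina7 and Ces1c lost their call. Of all 78 called genes named here, 49 passed with each animal left out in turn.

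Some genes with large changes had overlapping groups, and in the 5 named here animal 61 lay within the placebo range. Cyp4a12a, an ω-hydroxylase of fatty acids in male liver, read 1.5, 1.33, -1.5, 1.47 and 0.22 under DHT and -1.89 to -1.39 under placebo, a rise of 2.27 ± 0.35 (adjusted p = 0.000252). Nat8, an N-acetyltransferase, rose by 2.12 and Elovl3, a fatty acid elongase, by 1.93; in Elovl3, animals 61 and 63 lay at -2.24 and -1.19 and the other DHT animals between 0.41 and 0.88. The sulfotransferase Sult3a1 fell by 2.50 (SE 0.64, adjusted p = 0.0214), but a second probe differed by -0.0115. A1bg, a plasma glycoprotein of the female mouse liver, fell by 2.86 (SE 0.77, adjusted p = 0.0289), with -5.53, -4.74, -1.11, -5.66 and -3.75 under DHT. Its call was lost without animal 24, 27, 59, 60 or 62.

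Lists of liver genes described the breadth of the response; they were written with earlier results of these data known, so their directions are not independent evidence. Of 25 measured genes of the male-biased list, 15 rose (60%, against 2.13% of all genes) and 0 fell, with a median of 1.25 against -0.00491 over all genes. Besides those named, they were Nudt7 (1.87), Alas2 (1.29), C9 (1.25), Cd248 (1.25) and Cyp4a12b (0.38). Cyp7b1, an oxysterol hydroxylase, had a difference of 2.10 ± 0.68 and did not pass (adjusted p = 0.0809), and Moxd1, a monooxygenase, 0.40 (adjusted p = 0.838). Of 34 female-biased genes, 13 fell (38.2%, against 1.79%) and 1 rose, the alcohol dehydrogenase Adh4 (0.82), with a median of -0.76. In the intact animals here Adh4 was higher in males (female minus male -1.28, adjusted p = 6.16e-05), against its place in that list. Adh4 passed in 4, C9 in 6 and Cd248 in 7 of the 10 fits that left out 1 animal. Among the falls, Abcd2 (-1.06) and Pde6c (-1.12) passed in 4 of those fits, and a second Pde6c probe differed by -0.0561. The sulfotransferase Sult2a1, at -0.63, was among those that did not pass.

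The cytochrome P450 list moved both ways, with 6 of 43 measured genes higher and 7 lower. Over all genes, 2.13% were higher and 1.79% lower, the shares against which this and the next lists stand. Higher were Cyp4a12a, Cyp2d9, Cyp2d10, Cyp2r1 (0.57), Cyp4a12b and Cyp2b19 (0.29), and lower were Cyp2b13, Cyp2b9, Cyp2c40, Cyp2c70 (-1.34), Cyp2c37 (-0.88), Cyp2b23 (-0.67) and Cyp2c38 (-0.59). Cyp2b19 had a second probe at -0.057. Among 29 genes of steroid metabolism, Hsd3b5, Hsd3b2 and Hsd17b10 (0.55) rose and Cyp17a1 and Sult3a1 fell. Of 29 bile acid genes, Slco1a1, the sterol exporter gene Abcg8 (0.46) and the racemase Amacr (0.45) rose, while Cyp39a1, an oxysterol hydroxylase (-1.36), and the nuclear receptor Nr5a2 (-0.40) fell. Of 20 uptake transporters, Slco1a1 rose and Slc22a26, Slc22a27, the lactate transporter gene Slc16a1 (-0.99) and Slc17a1 (-0.69) fell. Of 28 conjugation genes, Nat8 and Sult5a1 (0.77) rose and Sult3a1 fell, and of 19 carboxylesterases and serpins 4 rose and 2 fell. Several of these calls rested on single animals: with each of the 10 left out in turn, Hsd17b10 passed 1 time, Cyp2b23 3 times, Cyp2b19 and Nr5a2 4 times, Cyp2r1 5 times and Cyp4a12b and Sult3a1 6 times.

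Lists of central metabolism and stress held few calls, most of them near the 3.92% of all genes that passed. Of 29 fatty acid oxidation genes and 23 genes of glucose output, 0 passed, with medians of -0.0402 and -0.0935. Of 30 fatty acid synthesis genes, Elovl3 rose and the desaturase Fads1 (-0.49, passing in 3 of those 10 fits) and the lipase Pnpla3 (-0.35) fell. Insig2 was the 1 call among 18 genes of cholesterol synthesis. Complement and coagulation had 1 of 32 (C9), acute phase 1 of 25 (Serpina3f), the ATF4 and unfolded protein list 1 of 24 (Slc3a2, -0.30), glucocorticoid response 1 of 20 (Gadd45b, -1.30), and polyamine and cell cycle 2 of 30 (Oaz2, 0.45, and Srm, 0.36). The 3 measured genes of the urinary protein and lipocalin list, Apom, Lcn2 and Obp2a, did not pass. None of these 3 is a major urinary protein gene, so the list gives no result on those genes.

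The signalling genes named in the background did not pass. Of 35 genes of the androgen and growth hormone list, 1 rose, the liver transcription factor Onecut1 (0.32; a second probe was at -0.11), and 0 fell, against 3.92% of all genes in either direction. The call of Onecut1 was lost without any one of 8 of the 10 animals. Differences were 0.43 ± 0.23 for the growth hormone receptor gene Ghr, -0.0191 ± 0.063 for Stat5b, -0.0383 ± 0.060 for Bcl6, -0.089 ± 0.10 for Cish, 0.10 ± 0.18 for Igf1, -0.63 ± 0.41 for Socs2 and 0.11 ± 0.12 for the estrogen receptor gene Esr1. Cux2, a repressor found in female liver, read -0.98, -1.05, 0.81, -1.16 and 0.60 in DHT animals 59 to 63 and -0.26 to 0.52 under placebo (-0.51 ± 0.31, adjusted p = 0.475). Animals 61 and 63 lay above all placebo animals and the other 3 below all of them.

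Over 9 lists of cell type markers, 1 of 81 measured genes rose (Alas2) and 2 fell (Tek, -0.23, of endothelium, and Pdgfrb, -0.44, of stellate cells), near the 3.92% of all genes. The call of Pdgfrb held with only 2 of the 10 animals left out in turn. List medians lay between -0.14 (hepatocyte) and 0.11 (neutrophil and erythroid). The summed linear ratio of the 9 hepatocyte markers was 8.00 to 8.91 under DHT and 8.33 to 10.2 under placebo, that of 15 Kupffer cell and macrophage markers 11.5 to 14.0 and 11.0 to 15.6, and that of 12 lymphocyte markers 11.1 to 12.5 and 12.2 to 13.8. That of the 9 neutrophil and erythroid markers, Alas2 among them, was 7.23 to 12.5 under DHT and 6.85 to 8.23 under placebo. The part of these shifts in other results was not tested.

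The intact sex difference gave a measure from animals outside the comparison of DHT with placebo. Intact females and males differed by at least 1.5-fold at an adjusted p under 0.05 on 460 probes (1.95%), 299 higher in males and 161 higher in females. Of the 299, 150 rose under DHT (50.2%, against 1.91% of all probes) and 0 fell, with a median of 0.47. Of the 161, 52 fell (32.3%, against 1.57%) and 0 rose, with a median of -0.46; the median of all probes was -0.00306. A score, the mean log2 ratio of the female probes minus that of the male probes, was 0.59, 0.42, 0.46, 0.46 and 0.46 in placebo animals 24 to 28. It was -1.37, -0.999, 0.14, -1.29 and -0.55 in DHT animals 59 to 63, so all 5 lay below all placebo animals, and animals 59 and 62 lay below intact male 11 (-1.24) but above the other 4 intact males (-1.87 to -1.8). Of the 299 probes, 163 (54.5%, against 6.32% of all probes) still differed between DHT animals and intact males, with a median of -0.48, and of the 161, 38 (23.6%), with a median of 0.37. The intact males of this test also chose the 460 probes. That choice favours such differences, and a gap between the scores of intact males and of other groups. Castrated males with estradiol lay between -0.40 and 0.0749, and ovariectomized females with DHT read -0.90, -0.85, -0.79, 0.62 and -0.73, with animal 53 apart.

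**Figure D2:**
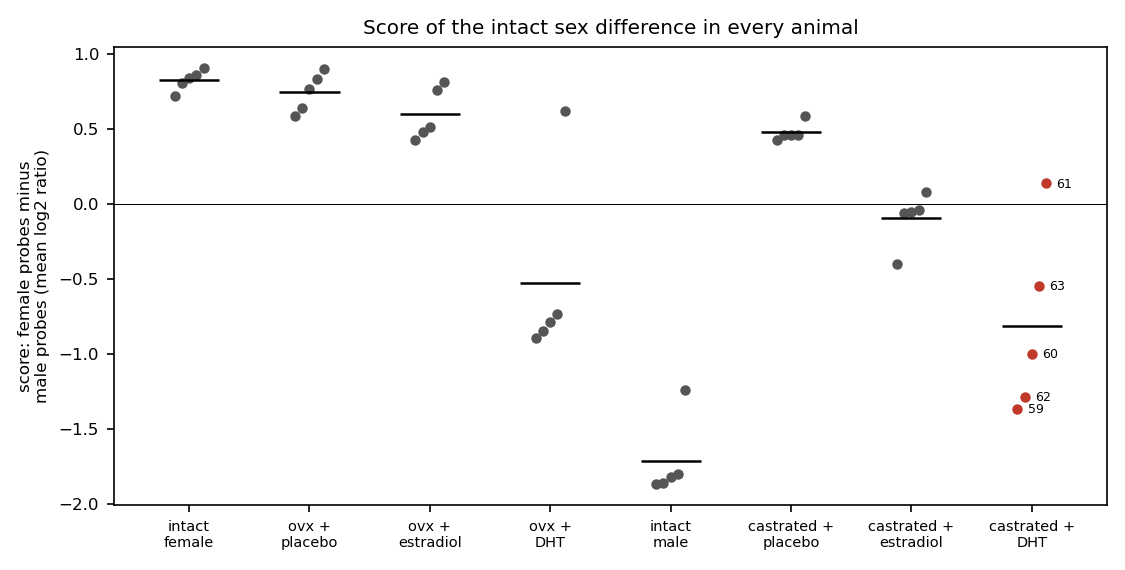
Score of the intact sex difference (vertical axis, log2) in every animal of the 8 groups; points are animals, bars are group means, and DHT animals carry their numbers. Castrated males with DHT spread from -1.37 to 0.14, against 0.42 to 0.59 with placebo.

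The response of animal 61 differed by gene. In 31 of the 40 genes it showed the smallest response of the 5 DHT animals. Its position was set on a scale from the placebo mean (0%) to the mean of the other 4 DHT animals (100%), as a description, since the same values chose the genes. In 27 genes that differed between intact sexes by at least 1.5-fold at an adjusted p under 0.05 it lay at 7.23% to 81.2% (median 27.5%), under 50% in 24. At the low end were Cyp2b9 (7.23%), Cyp2b13 (7.32%), Cyp17a1 (14.7%) and Hsd3b5 (14.8%), and at the high end Hao2 (66.6%), Alas1 (69.9%) and Hes6 (81.2%). In the other 13 genes it lay at 27.2% to 143% (median 95.9%), with Fbf1 (27.2%) and Mmp14 (35.9%) under 50%. Of the 13, 7 were at or above 75%: Upp2 (95.9%; intact female minus male -0.75, adjusted p = 0.123), Ngef (101%), Serpina7 (126%), Tk1 (128%), Trim2 (135%), Insig2 (143%) and Clpx (143%). On a scale to the mean of animals 59, 60 and 62, animal 63 was low in some of the same genes (Cyp2c40 24.8%, Serpina4-ps1 37.1%, Slc22a26 37.2%) but not in Ces3b (109%) or Rad51b (134%). Plasma hormone of single animals was not analysed here, and the part of dose, pellet or sample in these positions was not tested.

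**Figure D3:**
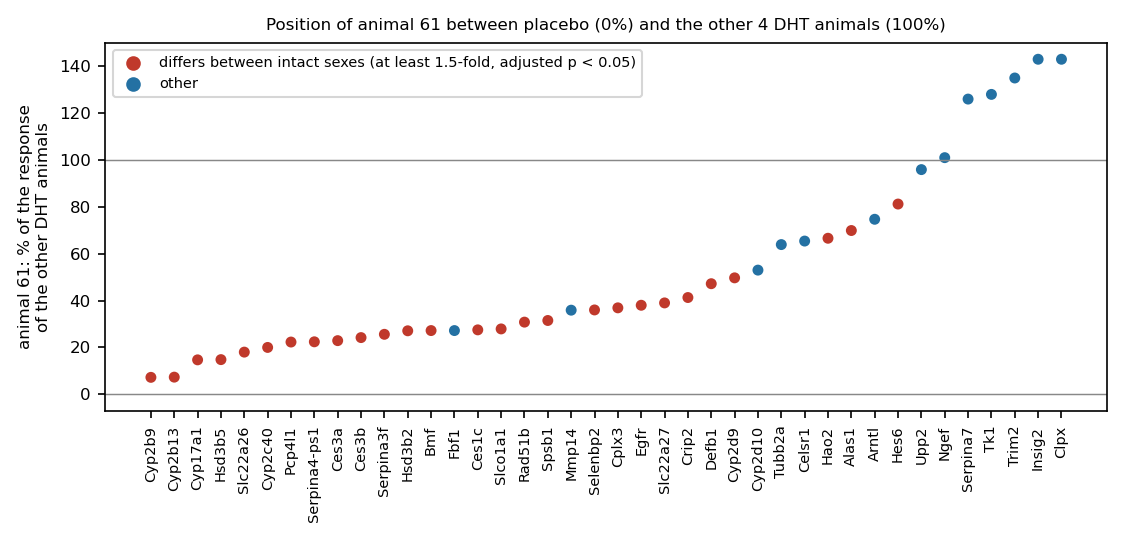
Position of animal 61 (vertical axis, percent of the distance from the placebo mean to the mean of the other 4 DHT animals) for the 40 genes, in red where intact females and males differed by at least 1.5-fold at an adjusted p under 0.05. Red genes have a median of 27.5% and blue genes a median of 95.9%.

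Genes without a called intact sex difference of that size included several on which all 5 DHT animals lay close together. Clpx read -1.30, -1.5, -1.71, -1.01 and -0.92 under DHT and -0.67 to 0.34 under placebo. Insig2 read -1.20, -1.35, -1.80, -1.15 and -1.43, against -0.81 to 0.27, and Arntl -1.35, -1.22, -0.97, -1.40 and -1.37, against -0.87 to 0.98. Tk1, which makes thymidine nucleotides, read 0.36, 0.27, 0.58, 0.43 and 0.34, against -0.72 to -0.29, and its second probe rose by 0.71. In the clock list of 19 genes, Per2 (1.22) and the deubiquitinase Usp2 (0.73) rose (10.5%, against 2.13% of all genes). Arntl fell (5.26%, against 1.79%). The rest did not pass, with the Rev-erb genes Nr1d1 at -0.709 and Nr1d2 at 0.242, Per1 at -0.133 and Per3 at 0.036. Per2 lost its call without animal 24, and with fewer groups in the fit, the 10 arrays alone or a clock index as covariate.

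A clock index, the mean log2 ratio of 8 genes of the period and Rev-erb arm minus that of 5 genes of the Arntl arm, was 0.32 to 0.51 under DHT. Under placebo it ran from -0.54 to 0.50, so the placebo animals were widely spread and 1 lay within the DHT range. The difference was 0.44 (exact permutation p = 0.0397, two-sided). Arntl, among the 40 genes chosen from these same livers, is part of the index, so that p-value is not independent of the choice. Intact males lay between -0.61 and -0.21, below all DHT animals. The hour at which each mouse was killed is not in the labels. With the index as a covariate, 36 of the 40 genes kept their call. Insig2 (-0.87, adjusted p = 0.0961), Upp2 (0.87, adjusted p = 0.0693), Pcp4l1 (-0.95, adjusted p = 0.188) and Cyp2d9 (1.62, adjusted p = 0.0646) did not. Clpx stayed at -1.04 (adjusted p = 0.0133), Tk1 at 0.59 (adjusted p = 0.0317), Ngef at 0.77 (adjusted p = 0.0167) and Arntl, itself in the index, at -0.67 (adjusted p = 0.0123).

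How far the DHT group lay from intact males was tested directly. At an adjusted p under 0.05, 1491 probes (6.32%) differed, 588 higher and 903 lower under DHT. With the clock index as a covariate 33 probes passed. The index of the 2 groups does not overlap, so this fit rests on the slope of the index within the 8 groups. A call can be lost there through a smaller estimate or a less precise one. For most probes the group and the index could not be told apart at that precision. The count was 762 without intact male 8, 960 without 10, 981 without 12 and 2870 without 11, and 861 without DHT animal 61. With quantile normalization it was 372. The arrays of intact males 8, 9 and 10 had interquartile ranges of 0.30, 0.34 and 0.26, against 0.23 and 0.21 in 11 and 12. Of the 40 genes, 16 passed (against 6.81% of all genes). The DHT animals of this test also chose the 40 genes, so that share is not independent of the choice. Among the rises, Upp2 (1.82), Ngef (1.21), Tk1 (1.01) and Hes6 (0.63) were higher than in intact males, and Bmf (-1.29), Selenbp2 (-1.17), Spsb1 (-1.07) and Cplx3 (-0.94) were lower. Among the falls, Slc22a26 (2.45) and Cyp2b9 (2.17) were higher than in intact males, and Insig2 (-2.09), Clpx (-1.93), Arntl (-1.90), Tubb2a (-1.45), Trim2 (-1.17) and Celsr1 (-0.98) were lower. Of these 16, Clpx kept its call with the clock index (-1.39, adjusted p = 0.0472). The estimates with the index changed little for Selenbp2 (-1.10), Spsb1 (-0.941) and Cplx3 (-0.805). They were smaller in size for others, such as Arntl (-0.545), Upp2 (0.691), Ngef (0.656) and Hes6 (0.196). A lost call therefore does not show a lost difference. Hsd3b5 (-0.93, adjusted p = 0.469), Egfr (-0.40, adjusted p = 0.428) and Hao2 (0.82, adjusted p = 0.44) did not differ past the threshold, which does not show that they were alike.

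The genes farthest from intact males were not all DHT genes. Moxd1 differed from intact males by -3.19 (limma adjusted p = 0.000107), with -1.63, -1.44, -1.63, -2.04 and -1.47 under DHT and -2.42 to -1.61 under placebo, while intact males varied widely (1.54 ± 2.16, SD, n = 5). Elovl3 (-2.48) and the growth factor binding protein gene Igfbp1 (-2.08) were lower too, and Rgs16, a regulator of G protein signalling (2.32), and the chemokine Cxcl1 (1.98) were higher. Cxcl1 read 3.09 in animal 63 and -0.63 to 0.47 in the other DHT animals. None of the 5 passed with the clock index as a covariate. Castration with placebo, against the same intact males, changed 2856 probes (12.1%), and it shares its placebo animals with the DHT comparison. Side by side, castration and DHT gave -5.70 and 4.78 for Hsd3b5, -2.41 and 2.00 for Egfr, 6.03 and -3.86 for Cyp2b13, and 4.32 and -3.5 for Hao2. For Clpx the values were -0.61 (adjusted p = 0.0758) and -1.32, for Insig2 -0.79 (adjusted p = 0.0635) and -1.31, and for Ngef 0.15 (adjusted p = 0.626) and 1.06.

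DHT in ovariectomized females, with no animal in common, was the nearest other comparison. There 271 probes (1.15%) passed, 149 higher and 122 lower; the count was 443 without animal 53 and between 89 and 181 without any other animal. Of these, 136 also passed in castrated males, all in the same direction: 16.6% of the castrated list and 50.2% of the ovariectomized list. Of the 819 probes, 673 (82.2%) had the same sign in females, against 58% of all probes. All 40 genes had the same sign, with 12 of 20 rises and 11 of 20 falls past the threshold (against 0.701% and 0.572% of all genes). Cyp2b13 gave -3.86 in both, Hao2 -3.5 and -4.17, Hsd3b5 4.78 and 3.29, and Cyp2d9 1.52 and 2.61 in males and females.

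The test of the difference between the male and female responses called 0 probes with limma, with 1790 at an unadjusted p under 0.05 and a smallest adjusted p of 0.222. Without animal 53 it called 7, without animal 20 it called 4, and with array weights it called 762. Intervals were wide for the strongest responders: the male minus female difference was 1.49 for Hsd3b5 (95% interval -0.60 to 3.58) and 0.000671 for Cyp2b13 (-2.07 to 2.07). The lowest adjusted p among the 40 genes was that of Celsr1 (0.287), at -1.49 in males and -0.34 in females, a difference of -1.15 (95% interval -1.72 to -0.58). Unadjusted intervals of Insig2 (-1.77 to -0.14), Trim2 (-1.17 to -0.11), Ngef (0.19 to 1.26), Fbf1 (0.20 to 1.35) and Selenbp2 (0.15 to 1.26) also left out 0, and none passed. The castrated males of this test also chose the 40 genes, which favours a larger male response. The difference was positive in 16 of 20 rises and negative in 18 of 20 falls.

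**Figure D4:**
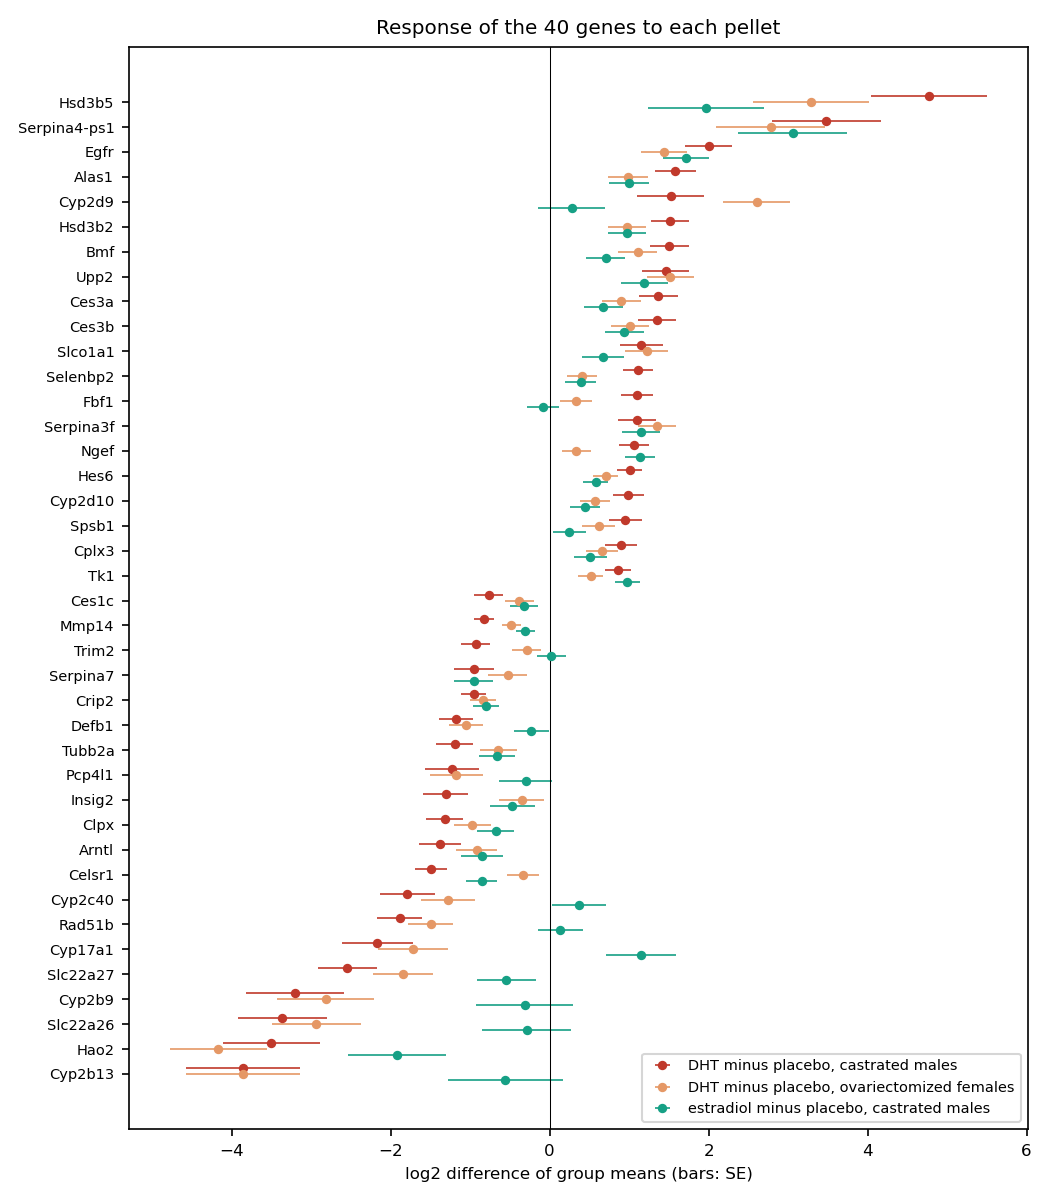
Log2 difference of group means (horizontal axis, bars are SE) for the 40 genes: DHT in castrated males (red), DHT in ovariectomized females (orange) and estradiol in castrated males (green). Cyp2b13 lay at -3.86 with DHT in both sexes and at -0.56 with estradiol, while Serpina4-ps1 lay at 3.48, 2.78 and 3.06.

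Estradiol in castrated males shares the placebo animals, and its pellet held another dose, so its values stand beside those of DHT. DHT and estradiol against placebo gave 3.48 and 3.06 for Serpina4-ps1, 2.00 and 1.71 for Egfr, 1.10 and 1.15 for Serpina3f, 1.06 and 1.14 for Ngef and 0.86 and 0.98 for Tk1. For Hsd3b5 they gave 4.78 and 1.96 (the second with adjusted p = 0.208). Among the falls they gave -3.86 and -0.56 for Cyp2b13, -3.36 and -0.29 for Slc22a26, -1.89 and 0.14 for Rad51b, and -2.17 and 1.15 for Cyp17a1, with estradiol past the threshold in 0 of these 4. Of all 20 falls, 16 were negative with estradiol and 3 passed (Serpina7 -0.96, Celsr1 -0.86 and Crip2 -0.80), and of the 20 rises 19 were positive and 9 passed (against 1.44% of all genes in either direction). Tested directly, 167 probes (0.708%) differed between DHT and estradiol animals, 76 higher and 91 lower with DHT. This count was 48 without animal 59, 56 without 44, 64 without 60, 81 without 62, 102 without 43, 110 without 46 and 493 without 63. The DHT animals of this test also chose the 20 falls and 20 rises, which favours calls among those genes. Of the 20 falls, 10 were lower with DHT than with estradiol (against 0.563% of all genes): Cyp17a1 (-3.31), Cyp2b13 (-3.30), Slc22a26 (-3.07), Cyp2b9 (-2.89), Cyp2c40 (-2.16), Rad51b (-2.02), Slc22a27 (-2.0), Defb1 (-0.95), Trim2 (-0.95) and Mmp14 (-0.52). Of the 20 rises, Fbf1 was higher with DHT (against 0.415% of all genes; 1.18, adjusted p = 0.00198) and the other 19 did not pass.

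Over the 30 arrays outside the comparison, the genes most like Hsd3b5 by Pearson r were Cyp2d9 (0.945), Alas2 (0.935), Cyp4a12a (0.934), Nat8 (0.931) and Nudt7 (0.93). Those most like Cyp2b13 were Cyp2b9 (0.989), Slc22a26 (0.976), the retinol dehydrogenase gene Rdh16f2 (0.975), Slc22a27 (0.958) and Sult3a1 (0.928). These describe arrays that share sex and hormone groups. Under DHT the first 5 rose by 1.29 to 2.27 and the second 5 fell, Rdh16f2 by 1.08 (adjusted p = 0.00403).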

How the data were processed

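Liver RNA of 40 mice was labelled Cy5 and hybridised beside a common Cy3 pool on 40 arrays, with no dye swap. The authors deposited ratios of 23574 probes on a log scale, taken as log10 because values stop at 2 on either side, a 100-fold ratio (29 values); another base would rescale every fold. Background correction, normalization and centring are not stated. Direction was taken as Cy5 over Cy3 from the dyes; the lowest correlation between 2 arrays was -0.47. Values were converted to log2.

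The 40 arrays entered 1 linear model with a mean for each of 8 groups (limma 3.58.1, R 4.3.3, lmFit and eBayes), two-sided, with Benjamini-Hochberg adjustment over all probes, and was tested on simulated data. Of the probes, 12662 had 1 mouse gene name, and the probe with the largest SD over all arrays stood for each of 10842 genes. Named genes are the 20 largest rises and falls among called genes with groups that do not overlap, without clone names, plus called list members, up to 4 more members of each list with the smallest adjusted p, signalling genes, and the 5 highest and lowest against intact males. Members and lists were chosen with earlier results of these data known. The number of arrays limits the precision. Each SE, adjusted p and interval of the main model uses a spread pooled over the 8 groups, which assumes equal spread. Where the DHT animals varied more than other groups, the printed SE can be too small for that comparison. No batch is given in the labels. Alternatives were fewer groups in the fit, array scaling and weights, the prior, a clock index as covariate, other probes and single animals left out. One gene and the motifs tied to it are not reported here.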

Additional observations from a re-analysis of the deposited data

Results flagged for a closer look

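Of 108 sets of 5 animals checked, 8 (7.41%) held an animal far from the other 4, and chance gives about 1 in 20. In castrated males with DHT, animal 61 stood apart for Hsd3b5 (-3.19, next 1.2), Hsd3b2 (-0.317, next 0.851) and Egfr (-0.686, next 0.532), on the side of the placebo animals each time. Animal 63 stood apart for the Y-linked genes Eif2s3y (1.44, next 0.754) and Ssty1 (0.202, next 0.685). Among castrated males with placebo, animal 24 had the highest sex score (0.587, next 0.461), animal 26 the lowest Trim2 (-0.544, next 0.0843) and animal 28 the lowest Stat5b (-0.0927, next 0.0082).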

How the results depend on the processing

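No paired analysis was possible because each animal number occurs in 1 group. For DHT against placebo in castrated males, 819 probes passed, 54.9% of them higher. The count was 379 with only the male groups in the fit, 3801 with array weights, 491 over named probes, 223 at 1.5-fold or more, and 335 to 1115 with 1 animal left out. Chosen after seeing the data, the 10 arrays alone gave 260 (71.9% higher), a residual component as covariate 1792, and leaving out animals 26 and 60 gave 432. The sex difference of the response gave 762 with array weights and 0 to 7 with 1 animal left out. DHT against intact males gave 748 with only the male groups, 372 with quantile normalization, 6220 with array weights (54.3% higher, against 39.4%), 33 with the clock index, 845 over named probes, 311 at 1.5-fold and 762 to 2870 with 1 animal left out. Castration gave 1802 with quantile normalization, 7762 with array weights, 1534 over named probes, 560 at 1.5-fold and 1976 to 3687 with 1 animal left out. DHT in ovariectomized females gave 545 with fewer groups, 757 with quantile normalization, 1298 with array weights, 149 over named probes, 135 at 1.5-fold and 89 to 443 with 1 animal left out. DHT against estradiol gave 64 with fewer groups, 1877 with array weights, 85 at 1.5-fold and 48 to 493 with 1 animal left out. The intact sex difference gave 1249 with fewer groups, 5443 with array weights, 1187 over named probes, 460 at 1.5-fold and 1455 to 2604 with 1 animal left out. Other probes reversed Crip2 (0.0503), Cyp2b19 (-0.0572), Cyp2c40 (0.137), Onecut1 (-0.106), Srm (-0.0168) and Upp2 (-0.0629). The named-probe and 1.5-fold counts are smaller because fewer probes can pass; otherwise the cause was not tested. The next counts cover 9 settings. They do not cover named probes only, removal of probes at the value limit, the 1.5-fold threshold, other probes or single animals left out. Of the 40 genes, 27 kept their call under all 9 settings. The other 13 lost it: Serpina4-ps1, Cyp2b13, Cyp2b9, Slc22a26, Cyp2c40, Ces1c, Cplx3 and Serpina7 with the 10 arrays alone, Slco1a1 with fewer groups, Insig2, Upp2, Pcp4l1 and Cyp2d9 with the clock index, Cyp2d9 also with quantile normalization and with a trended robust prior, and Serpina7, Pcp4l1 and Cyp2d9 without animals 26 and 60. Of all 78 called genes named, 30 kept their call under those settings.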
